A study of Mus musculus with 6 samples.

Results

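The genes described are those of the natriuretic peptide system and of the fetal-to-adult muscle switch in the heart: Nppa, Nppb, Npr1, Npr3, Myh6, Myh7, Acta1, Ankrd1 and Xirp2. They were taken by symbol through their Ensembl identifiers, and all 9 were found among the 52550 rows of the table and all 9 passed the filter on low values, which left 14656 genes for testing. RNA came from hearts of C57BL/6 mice in which the left anterior descending coronary artery had been tied off permanently at 8 weeks of age, and all 6 hearts were infarcted and taken at 10 weeks of age, 2 weeks after the operation. The 3 control mice (WT) were wild type, and the other 3 (KO) had the genotype lncRNA-DRR-/-, which lacks a long noncoding RNA. The labels do not say how that allele was made, and no sham-operated heart was analysed here, so the comparison is KO against WT within infarcted hearts and says nothing of what the infarct itself changed. By the sex-linked genes Xist and Ddx3y, KO replicate 3 had a female pattern and every other heart a male one. Sex was thus not balanced between the genotypes, which bears on every comparison that holds KO replicate 3.

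Atrial natriuretic peptide (Nppa) and B-type natriuretic peptide (Nppb) are hormones that heart muscle releases when its wall is stretched. They lower blood volume and pressure through the receptor NPR-A (Npr1), a guanylyl cyclase that makes cyclic GMP, and are cleared from the blood by the receptor NPR-C (Npr3). In the mouse ventricle the adult motor protein is alpha-myosin heavy chain (Myh6), whereas the fetal ventricle uses beta-myosin heavy chain (Myh7), and injured or overloaded muscle returns in part to the fetal set, with more Myh7, Nppa, Nppb and skeletal alpha-actin (Acta1). Ankrd1 encodes a stretch-responsive ankyrin repeat protein that binds titin and also enters the nucleus, and Xirp2 encodes an actin-binding protein of the intercalated disc.

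The myosin genes lie in tandem on chromosome 14, with Myh7 (54970684 to 54994626, minus strand, GRCm38) upstream of Myh6 (54941921 to 54966927, minus strand), and each carries a microRNA in an intron. The mature microRNAs are shown because they mark the switch at the level of the locus, with the seed (bases 2 to 8) in capitals (RefSeq, GRCm38.p6).
mmu-miR-208a-3p, host Myh6: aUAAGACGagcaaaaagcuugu
mmu-miR-208b-3p, host Myh7: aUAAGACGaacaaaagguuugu
The seeds are the same, and the full sequences differ at 3 of 22 bases, counted from the 5′ end (G10A, A16G and C18U, with the miR-208a base first). The levels of the mature microRNAs were not measured by these libraries.

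The natriuretic peptide genes are neighbours on chromosome 4, both on the plus strand, with Nppb at 147985788 to 147987205 and Nppa at 148000722 to 148002079. The 250 bases before the RefSeq start of these genes, of Acta1, which had the largest log2 difference, and of Myh7, which had the smallest p, are printed from GRCm38.p6 in the direction of transcription. Capitals mark matches on either strand to CATTCC (the MCAT element bound by TEAD factors), GATAA (bound by GATA factors), TATAAA, and the CArG box and MEF2 site, each by its usual consensus.
Nppa, chr4:148000472-148000721, plus strand: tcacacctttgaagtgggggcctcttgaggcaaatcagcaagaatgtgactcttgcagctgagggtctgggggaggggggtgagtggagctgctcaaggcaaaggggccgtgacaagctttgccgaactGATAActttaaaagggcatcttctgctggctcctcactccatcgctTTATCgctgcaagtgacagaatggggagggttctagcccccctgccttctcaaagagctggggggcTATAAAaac
Nppb, chr4:147985650-147985899, plus strand: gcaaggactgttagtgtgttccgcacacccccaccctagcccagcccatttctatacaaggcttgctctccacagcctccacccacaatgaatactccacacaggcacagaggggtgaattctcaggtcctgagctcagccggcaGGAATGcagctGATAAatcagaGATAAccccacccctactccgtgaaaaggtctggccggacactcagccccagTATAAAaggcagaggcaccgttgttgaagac
Acta1, chr8:123894776-123895025, minus strand: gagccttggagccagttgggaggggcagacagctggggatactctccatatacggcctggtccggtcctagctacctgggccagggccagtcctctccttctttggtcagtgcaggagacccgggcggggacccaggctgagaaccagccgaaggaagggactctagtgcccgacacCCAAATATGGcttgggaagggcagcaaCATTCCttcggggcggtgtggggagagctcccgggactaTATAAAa
Myh7, chr14:54994550-54994799, minus strand: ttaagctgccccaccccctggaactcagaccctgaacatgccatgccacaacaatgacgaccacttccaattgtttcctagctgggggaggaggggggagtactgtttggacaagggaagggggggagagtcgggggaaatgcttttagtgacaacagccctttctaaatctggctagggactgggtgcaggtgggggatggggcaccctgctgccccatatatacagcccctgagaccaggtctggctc
The Nppa window held GATAA in both orientations, and the Nppb window held GATAA in 2 places and CATTCC on the opposite strand. The Acta1 window held a CArG box and CATTCC, and none of the searched letters are in the Myh7 window. That window lies before the most downstream of 2 RefSeq promoter entries for Myh7, and the other is not shown. The Nppb and Myh7 windows reach into the gene spans given above. Of the windows not printed, that of Myh6 (54966608 to 54966857) lies wholly inside its gene span. So does that of Ankrd1 (36119845 to 36120094, gene 36111961 to 36120099). Over the 9 windows, CATTCC was found in 4 (Nppb, Myh6, Acta1 and Ankrd1) and GATAA in 3 (Nppa, Nppb and Ankrd1). TATAAA was found in 3 (Nppa, Nppb and Acta1), the CArG box in that of Acta1 and a MEF2 site in that of Xirp2. Among 32841 RefSeq promoter windows of this length, 12.6% held CATTCC, 22.6% GATAA, 12.4% TATAAA, 1.5% a CArG box and 2.9% a MEF2 site.

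Levels are FPKM, that is, fragments scaled to transcript length and to library size, so levels of different genes can be compared. Depth was estimated at about 5189000 to 9398000 fragments per library. By the mean of the 6 libraries the order was Myh6 (2191 ± 433 FPKM, SD, n = 6), Ankrd1 (1457 ± 292), Nppa (1151 ± 343), Nppb (626 ± 157), Acta1 (242 ± 104), Myh7 (193 ± 59.5), Xirp2 (85.8 ± 19.8), Npr1 (7.94 ± 1.09) and Npr3 (7.13 ± 1.19). The ranges of neighbours overlapped from Myh6 down to Nppb, between Acta1 and Myh7 and between Npr1 and Npr3. Within single libraries Nppa was above Nppb in 6 of 6, Myh6 above Ankrd1 and Ankrd1 above Nppa in 5 of 6 each, Npr1 above Npr3 in 4 of 6 and Acta1 above Myh7 in 3 of 6, so the last of these pairs had no order. The peptide genes stood far above the receptor genes in these whole hearts. In whole tissue, fewer cells of a type and less RNA per cell cannot be told apart.

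Hearts without lncRNA-DRR had lower mean levels of 7 of the 9 genes, but none of the 9 passed the test at an adjusted p under 0.05 (limma, Benjamini-Hochberg over all 14656 genes). The largest differences were those of Acta1 and Myh7, each at 0.61 of the WT mean, followed by Xirp2 at 0.74 of it. Over all tested genes 55 passed, which is 0.375% (0.273% higher and 0.102% lower in KO). Before adjustment, limma gave 2 members, Myh7 and Xirp2, a p under 0.05, both lower, where 8.48% of all tested genes had one (3.80% higher and 4.68% lower). These 2 genes, again both lower, were also those whose genotypes were fully separate, as were 14.0% of all tested genes (6.53% higher and 7.49% lower). The median log2 difference of the members was -0.37, beside -0.0041 over all tested genes, of which 50.7% were lower. Log2 differences are KO minus WT ± SE on the scale of log2(FPKM + 0.5) after scaling, with n = 3 per group, and values by library are given in the order of replicates 1, 2 and 3. When single libraries were left out, 7 or 8 of the 9 estimates were below 0, though Nppa, Npr1, Npr3 and Myh6 each changed sign at least once.

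**Figure D1:**
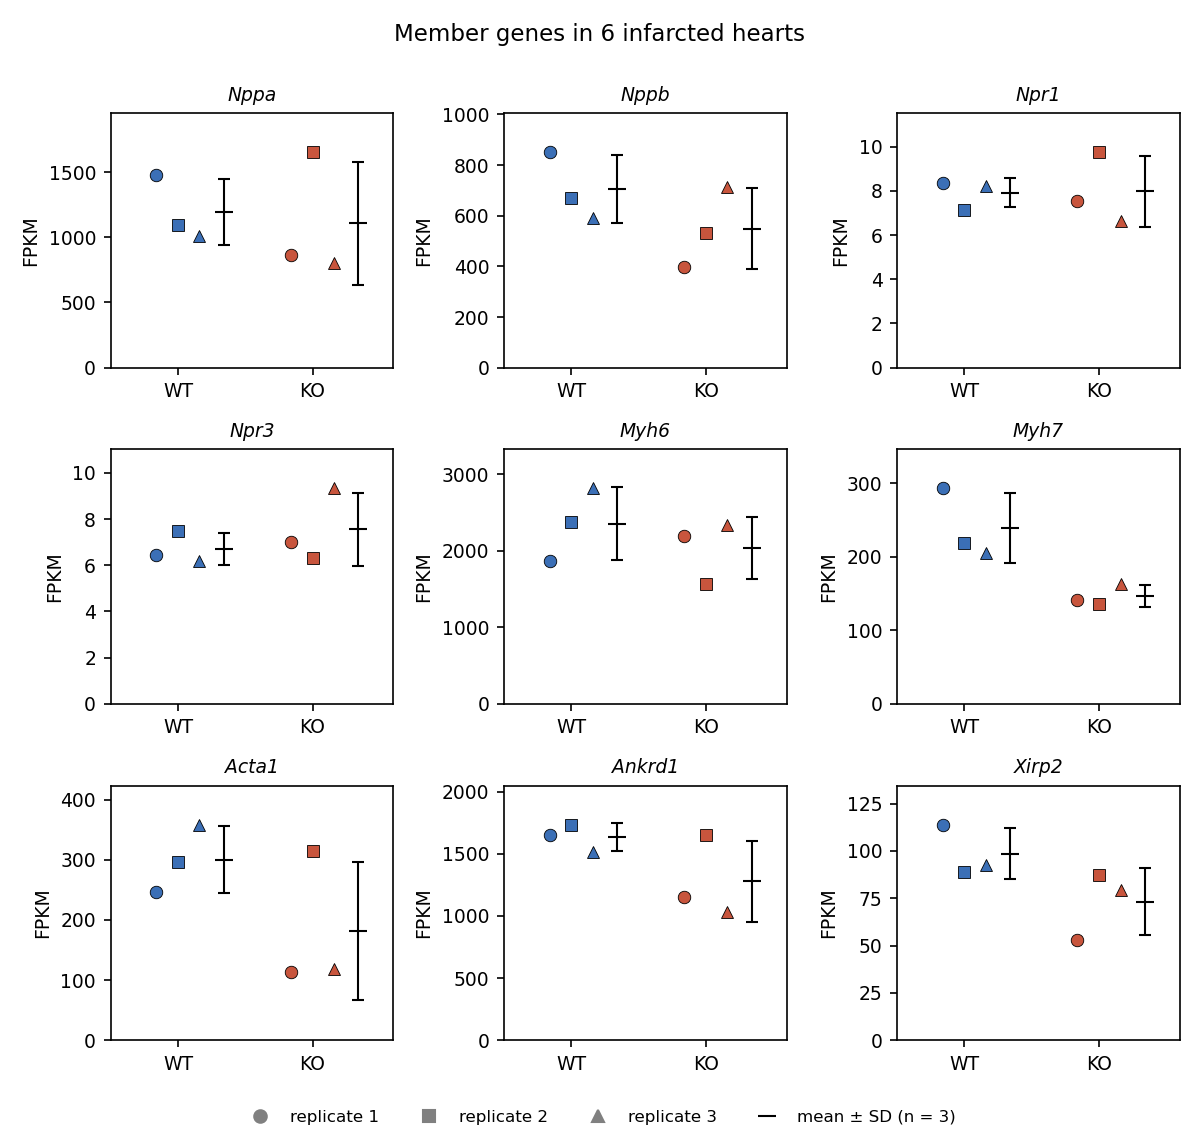
FPKM of the 9 genes in each of 3 WT and 3 KO infarcted hearts (vertical axis from 0; each symbol is 1 heart, black bars give mean ± SD, n = 3). The groups are separate for Myh7 (205 to 293 against 136 to 163 FPKM) and Xirp2, and KO replicate 2 stands within or above the WT range for Nppa, Acta1 and Ankrd1.

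Nppa stood at 1480, 1097 and 1007 FPKM in WT replicates 1 to 3 and at 863, 1653 and 804 FPKM in KO replicates 1 to 3. The groups overlapped, with KO replicate 2 the highest of all 6 libraries and the other KO libraries the lowest (log2 difference -0.16 ± 0.28, limma adjusted p = 0.926). Without KO replicate 2 the log2 difference was -0.44 ± 0.18 (limma adjusted p = 0.511), and without KO replicate 3 it was 0.02 (limma adjusted p = 0.993). KO replicate 2 was also the library with the highest sum of markers of atrial muscle, the main source of Nppa in a healthy adult heart. The atrial light chain gene Myl7 stood at 25.2 FPKM there and between 0 and 4.80 FPKM in the other 5 libraries, Myl4, the other atrial light chain gene, at 8.45 against 0.428 to 1.62 FPKM, and Sln, which encodes the atrial calcium pump inhibitor sarcolipin, at 4.75 against 0 to 1.01 FPKM. The rest of the list was mixed in KO replicate 2. Dkk3 (51.8 FPKM), Gja5 (3.99) and Mybphl (1.85) were also highest there, but Kcnj3 (2.38) and Stard10 (2.92) were lowest. Tbx5 (4.48) was within the range of the others. The 10 atrial markers summed to 41.6 to 59.5 FPKM for WT and to 47.1, 106 and 56.9 FPKM in KO replicates 1 to 3, with Bmp10 listed at 0 in all 6. Dkk3 was the largest part of the sum of KO replicate 2. Of 8 tested atrial markers 7 had higher estimates (median 0.23) and none passed. Without WT replicate 1 it was 4 of 7 (median 0.04), without KO replicate 2 also 4 of 7 (median 0.19), and without KO replicate 1 the median was 0.38. The largest differences were those of Myl4 (0.53 ± 0.73) and Dkk3 (0.44 ± 0.27). Their part in the Nppa level was not tested.

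Nppb measured 851, 671 and 589 FPKM across the WT hearts, against 396, 533 and 715 FPKM across the KO hearts. The groups overlapped because KO replicate 3 lay above 2 of the WT libraries (log2 difference -0.37 ± 0.24, limma adjusted p = 0.762). That library differs from the other 5 in sex-linked genes, with Xist, the RNA that coats an inactive X chromosome, at 25.6 FPKM against 0.0742 or less. Ddx3y, also sex-linked, stood at 0.028 FPKM there against 13.0 to 16.2 FPKM in the others. This is a female pattern in 1 KO heart, and the part of sex in the differences was not tested. Without KO replicate 3 the Nppb difference was -0.60 ± 0.20 (limma adjusted p = 0.446), and without KO replicate 1 it was -0.19 (limma adjusted p = 0.948).

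The peptide genes kept a nearly fixed ratio in WT hearts and not in KO hearts. Nppb to Nppa was 0.575, 0.611 and 0.585 in WT and 0.459, 0.322 and 0.890 in KO libraries, so every KO ratio lay outside the WT range, 2 below and 1 above it. The mean ratio was 0.590 ± 0.0188 in WT and 0.557 ± 0.296 in KO (log2 difference -0.21, exact permutation test, two-sided, p = 0.7, BH-adjusted over the 9 ratios tested 0.787). With 3 against 3 libraries this test cannot go below 0.1, and it compares means; the difference in spread was not tested.

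The receptor genes did not separate the genotypes. Npr1 measured 8.37, 7.15 and 8.21 FPKM across the WT hearts, against 7.54, 9.75 and 6.65 FPKM across the KO hearts (log2 difference 0.01 ± 0.14, limma adjusted p = 0.993). Npr3 measured 6.43, 7.50 and 6.19 FPKM across the WT hearts, against 7.00, 6.32 and 9.33 FPKM across the KO hearts (0.16 ± 0.18, limma adjusted p = 0.870). The groups overlapped for both genes, and KO replicate 3, which had the highest Npr3, had the lowest Npr1. The ratio of Npr3 to Npr1 was 1.40 in that library, 0.929 and 0.648 in the other KO libraries and 0.754 to 1.05 in WT (log2 difference 0.15, exact permutation p = 0.7, adjusted 0.787).

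Myh7 was the member that set the genotypes apart most clearly. It measured 293, 219 and 205 FPKM across the WT hearts, against 141, 136 and 163 FPKM across the KO hearts. Every KO heart was below every WT heart, with means of 239 ± 47.2 and 147 ± 14.4 FPKM (log2 difference -0.67 ± 0.16, limma unadjusted p = 0.00375, adjusted p = 0.225). Over 16 other settings the log2 difference stayed between -0.77 and -0.47, and the adjusted p between 0.213 and 0.560. The value nearest 0 came without WT replicate 1, which had the highest Myh7, and KO replicate 2 together.

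Myh6 measured 1865, 2376 and 2814 FPKM across the WT hearts, against 2193, 1568 and 2329 FPKM across the KO hearts, and the ranges overlapped in part, with KO replicate 2 below every WT heart and WT replicates 2 and 3 above every KO heart (log2 difference -0.20 ± 0.30, limma adjusted p = 0.909). Beta-myosin made up a small part of the myosin heavy chain RNA in every heart: Myh7 was 13.6%, 8.44% and 6.78% of Myh6 plus Myh7 in WT and 6.03%, 8.00% and 6.54% in KO libraries. The ratio of Myh7 to Myh6 was 0.157, 0.0922 and 0.0727 in WT and 0.0641, 0.0869 and 0.0700 in KO libraries. WT replicate 1 lay apart at the top, while KO replicate 2 lay above WT replicate 3, so the switch ratio overlapped although Myh7 alone did not (log2 difference -0.48, exact permutation p = 0.2, adjusted 0.72). Without WT replicate 1 the log2 difference of the ratio was -0.16 (exact permutation p = 0.4). The transcripts share sequence: 22.2% of all 50-base words of the longest Myh7 transcript also occur in Myh6 and 22.6% of those of Myh6 in Myh7, so the authors' division of reads between them is uncertain. For Acta1 and Actc1, Nppa and Nppb, and Npr1 and Npr3 no such word was shared.

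**Figure D2:**
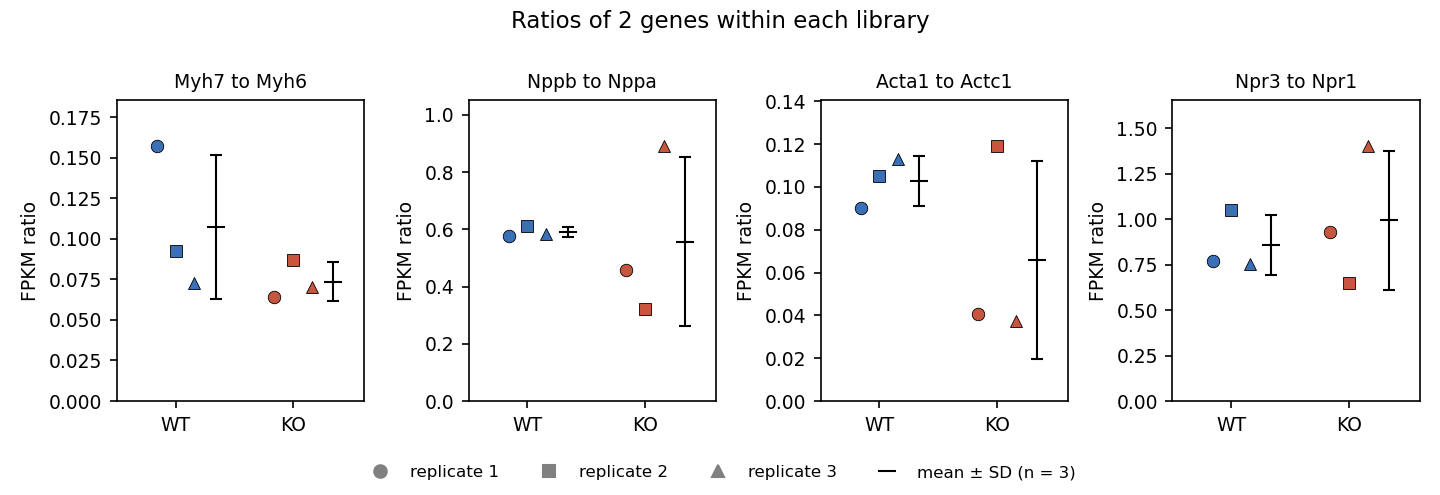
Ratio of FPKM of 2 genes within each library (vertical axis from 0; each symbol is 1 heart, black bars give mean ± SD, n = 3). Nppb to Nppa lies between 0.575 and 0.611 in WT and between 0.322 and 0.890 in KO, and Myh7 to Myh6 overlaps between the genotypes with WT replicate 1 at 0.157.

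Antisense genes overlap both loci, and nothing in the sources used here says whether reads were counted by strand. Mhrt, which runs antisense to Myh7 and is known in the mouse as a lncRNA that protects heart muscle, shares 484 of its 1214 exonic bases with Myh7. It measured 181 to 218 FPKM across the WT hearts, against 183, 137 and 206 FPKM across the KO hearts (log2 difference -0.17 ± 0.22, limma adjusted p = 0.887). Its genotypes overlapped. Gm29015, also antisense to Myh7, shares 142 of its 207 exonic bases with it. Its levels were 79.97, 77.67 and 36.77 FPKM in the WT hearts, with 28.14, 27.55 and 54.79 FPKM in the KO hearts, so KO replicates 1 and 2 were below every WT heart and KO replicate 3 was above WT replicate 3. Gm13054 runs antisense to Nppa and shares 532 of its 820 exonic bases with it. Its levels were 220.8, 173.5 and 139.9 FPKM for WT and 100.5, 231.8 and 129.7 FPKM for KO hearts, with the highest value in KO replicate 2 as for Nppa. Without strand, reads of a gene and of its antisense partner cannot be told apart where they overlap. Gm13054 overlaps 61.5% of the exonic bases of Nppa. Mhrt overlaps 5.6% and Gm29015 1.6% of those of Myh7.

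Acta1, the skeletal actin gene that fetal and stressed heart muscle uses beside cardiac actin, measured 247, 296 and 359 FPKM across the WT hearts, against 113, 315 and 119 FPKM across the KO hearts. KO replicates 1 and 3 were below every WT library, and KO replicate 2 was within the WT range (log2 difference -0.86 ± 0.37, limma adjusted p = 0.596). Without KO replicate 2 the log2 difference was -1.30 ± 0.22 (limma adjusted p = 0.130). Cardiac actin (Actc1) stood at 2736 to 3182 FPKM for WT and 2652 to 3167 FPKM for KO hearts (log2 difference -0.01 ± 0.24). The ratio of Acta1 to Actc1 was 0.0902, 0.105 and 0.113 in WT and 0.0408, 0.119 and 0.0375 in KO libraries (log2 difference -0.85, exact permutation p = 0.4, adjusted 0.72).

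Acta1 is also a skeletal muscle gene, and some libraries held skeletal muscle RNA. The 8 skeletal muscle markers summed to 37.2, 2.65 and 3.01 FPKM for WT and to 13.5, 4.0 and 1.53 FPKM for KO hearts. Tnnt3, the fast skeletal troponin T gene, reached 10.9 FPKM in WT replicate 1 and 2.95 FPKM in KO replicate 1, against 0.092 to 0.556 FPKM in the other 4. The 4 tested skeletal markers had lower estimates and none passed, with Mylpf at -1.02 ± 0.73 and Tnnt3 at -0.56 ± 1.08. Their median was -0.38, and it was 0.14 without WT replicate 1 and -1.21 without KO replicate 1, with 2 markers tested in each case. WT replicate 1 and KO replicate 1, the libraries with the most skeletal marker RNA, were each the lowest of their genotype in Acta1, and the part of skeletal muscle in its level was not tested. Without WT replicate 1 and KO replicate 2, a setting chosen after the data were seen, Acta1 differed by -1.48 ± 0.14 (limma adjusted p = 0.0738).

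Ankrd1 measured 1651, 1737 and 1514 FPKM across the WT hearts, against 1156, 1650 and 1033 FPKM across the KO hearts. Its pattern was like that of Acta1, with KO replicates 1 and 3 below every WT library and KO replicate 2 among them (log2 difference -0.37 ± 0.22, limma adjusted p = 0.729). Without KO replicate 2 the log2 difference was -0.52 ± 0.17 (limma adjusted p = 0.412). Xirp2 measured 114, 89.1 and 92.4 FPKM across the WT hearts, against 53.1, 87.1 and 79.2 FPKM across the KO hearts. The genotypes did not overlap, though KO replicate 2 was close to WT replicate 2 (log2 difference -0.44 ± 0.18, limma unadjusted p = 0.0426, adjusted p = 0.561). Without KO replicate 1, the lowest, the log2 difference was -0.25 ± 0.15 (limma adjusted p = 0.875).

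**Figure D3:**
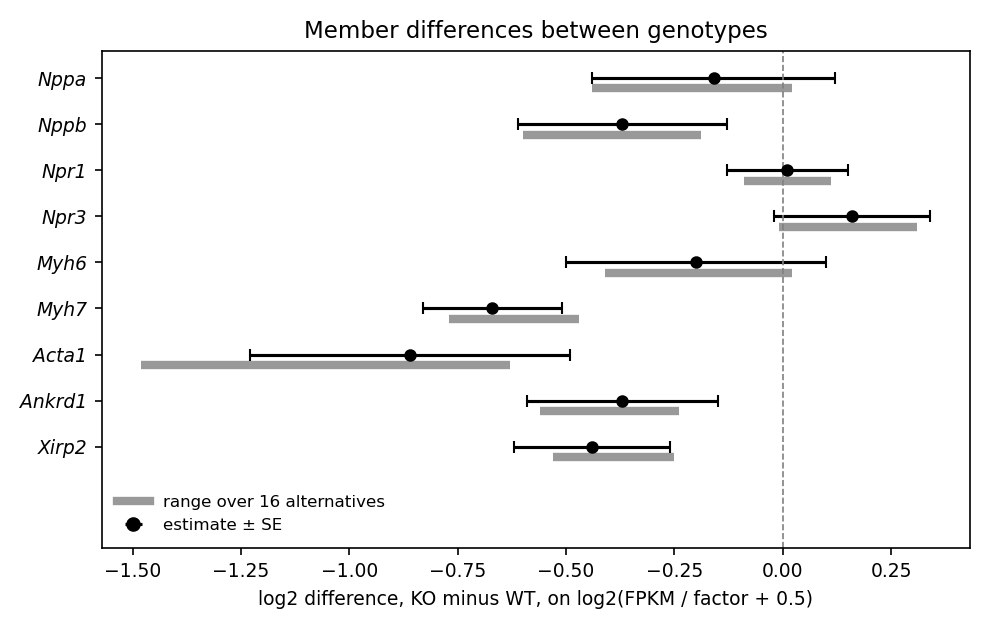
Log2 difference, KO minus WT, of the 9 genes on the scale of log2(FPKM / scaling factor + 0.5) (black points and bars, estimate ± SE, n = 3 per group), with the range over 16 alternative settings as grey bars. The ranges of Nppb, Myh7, Acta1, Ankrd1 and Xirp2 stay below 0, and those of Nppa, Npr1, Npr3 and Myh6 cross it.

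For most of these genes the KO hearts varied more among themselves than the WT hearts, a description without a test. The SD of the scaled log2 values was wider in KO for 8 of the 9 members, against 57.9% of all tested genes. Myh6 was the exception (0.386 in KO, 0.389 in WT), and Myh7 was nearly even (0.191 in KO, 0.186 in WT). KO replicate 2 was the highest KO library for 5 members and the lowest for 3, and KO replicate 1 was the highest for none. In FPKM, the SD of Acta1 was 63.2% of the mean in KO and 18.6% in WT, and that of Nppa 42.8% and 21%. Myh7 went the other way on this scale, at 9.81% in KO and 19.8% in WT. Myh6 was slightly lower in KO, and the other members were higher in KO. The wider KO spread of Myh7 thus held only for the scaled log2 values.

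Heart muscle RNA was followed by 10 cardiomyocyte markers, all 10 of which had lower estimates in KO (median log2 difference -0.16) without any passing the test. The largest were those of Ttn, the titin gene (-0.52 ± 0.17, limma adjusted p = 0.398), and Mybpc3, described with the adult genes. The smallest was that of Actc1 (-0.01 ± 0.24). The mean log2 level of the 10 markers differed by -0.23 (exact permutation p = 0.3). KO replicate 2 was low, with a marker sum of 7394 FPKM against 9538 to 11547 FPKM in the other 5. Without it 7 of the 10 estimates were above 0 (median 0.05), and without KO replicate 3 the median was -0.33. Relative to the mean log2 level of these markers, Myh7 differed by -0.46 and its libraries overlapped (exact permutation p = 0.2, adjusted over the 9 members 0.9). Acta1 differed by -0.65, Xirp2 by -0.22, Nppb by -0.16, Ankrd1 by -0.15, Nppa by 0.06, Myh6 by 0.01 and Npr1 by 0.23 (exact permutation p from 0.4 to 1). Npr3 differed by 0.37 and was the 1 member whose libraries did not overlap on this scale (exact permutation p = 0.1, the smallest possible, adjusted 0.9). In FPKM its groups overlapped. KO replicate 2 had the lowest mean log2 level of the markers (8.29, against 8.66 to 8.97 in the others) and the highest Npr3 on this scale (-5.52). Relative to the median of the markers in place of their mean, Npr3 differed by 0.31 (exact permutation p = 0.3). The share of all tested genes that separate on this scale was not counted. Npr3 is expressed mostly outside the heart muscle cell, in endocardium among others.

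**Figure D4:**
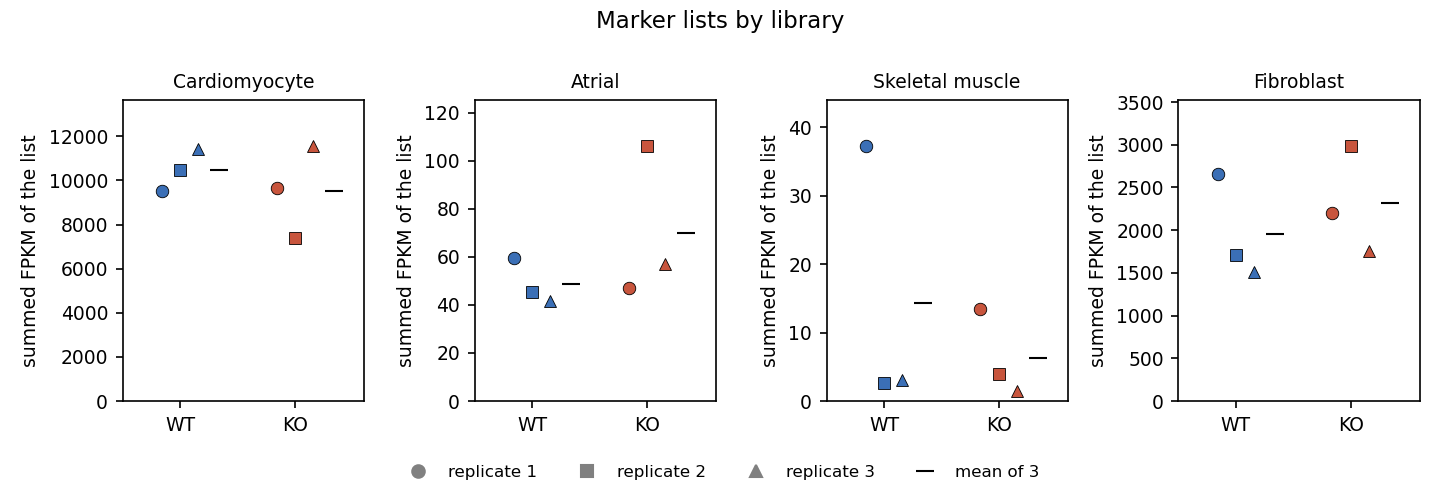
Summed FPKM of 4 marker lists in each library (vertical axis from 0; each symbol is 1 heart, the black line is the mean of 3). KO replicate 2 is lowest in cardiomyocyte markers (7394 FPKM) and highest in atrial (106 FPKM) and fibroblast markers, and WT replicate 1 is highest in skeletal muscle markers (37.2 FPKM).

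Fibroblast markers had higher estimates in 9 of 10 cases (median log2 difference 0.31), none passing the test, and their sum was highest in KO replicate 2 (2982 FPKM) and WT replicate 1 (2660 FPKM), the libraries that were also highest in Nppa. The largest differences were those of Mfap5 (0.72 ± 0.22, limma adjusted p = 0.385) and Postn (0.50 ± 0.28, limma adjusted p = 0.708). Without KO replicate 2 the fibroblast median was 0.09, and without WT replicate 1 it was 0.62. Of 10 macrophage markers 9 had lower estimates (median -0.19), none passing the test, led by Ccr2 (-1.07 ± 0.22, limma adjusted p = 0.143) and Fcgr1 (-0.78 ± 0.22, limma adjusted p = 0.307). The macrophage median was -0.07 without WT replicate 1, which had the highest sum (1257 FPKM), -0.29 without WT replicate 3 and -0.30 without KO replicate 2. Of 10 endothelial markers 7 had higher estimates (median 0.05), and Kdr, the main VEGF receptor gene, stood lower at 27.4 ± 1.05 against 40.9 ± 2.30 FPKM (log2 difference -0.55 ± 0.13, limma adjusted p = 0.195). Among 7 tested endocardial markers Cytl1, a cytokine-like gene, had 24.2 ± 2.56 FPKM for KO and 11.5 ± 2.23 FPKM for WT (1.07 ± 0.18, limma adjusted p = 0.0712). It passed under 1 of the 16 other settings, without WT replicate 3 (limma adjusted p = 0.0471), and had an adjusted p of up to 0.312 under the others. Tmem108 differed by -0.39 ± 0.19 and the endothelial Robo4 by 0.27 ± 0.13. The smooth muscle list had a median of 0.07, led by Acta2 and Abcc9 (-0.26 ± 0.13), and 4 tested conduction markers had a median of -0.18, led by Irx3 (-0.38 ± 0.22) and Hcn4 (-0.30 ± 0.33). The conduction median was -0.35 without WT replicate 1, 0.03 without WT replicate 3 and -0.00 without KO replicate 1, and that of smooth muscle was between 0.02 and 0.18 when single hearts were left out. The endothelial median lay between 0.01 and 0.09 in the same way and the endocardial one between -0.05 and 0.13, while 5 of 6 lung markers were listed at 0 everywhere. The part of these cell types in the member levels was not tested.

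In the rest of the natriuretic peptide and cyclic GMP pathway, 13 of 16 listed genes were tested, 7 with higher and 6 with lower estimates (median log2 difference 0.05), and none passed the test. The median lay between -0.08 (without WT replicate 2) and 0.06 (without KO replicate 3). The genotypes were fully separate for 1 gene higher and 2 lower in KO, where 6.53% and 7.49% of all tested genes were. The 3 genes of smallest p are named for this list and for the fetal, adult and regulator lists below, a choice that favours separate genotypes. Pde3a, a phosphodiesterase gene whose enzyme is inhibited by cyclic GMP, measured 8.31, 8.35 and 8.08 FPKM across the WT hearts, against 5.31, 5.41 and 5.93 FPKM across the KO hearts, with no overlap (log2 difference -0.52 ± 0.12, limma adjusted p = 0.193). Pde2a, which encodes a phosphodiesterase that cyclic GMP activates, stood at 8.33 to 10.1 FPKM for WT and 3.95 to 7.80 FPKM for KO (-0.56 ± 0.22, limma adjusted p = 0.531). Prkg1, the gene of cyclic GMP-dependent protein kinase, stood at 1.61 to 2.17 FPKM for WT and 2.18 to 2.91 FPKM for KO (0.39 ± 0.15, limma adjusted p = 0.522). Corin, the protease that cuts the Nppa precursor, stood at 25.0 ± 1.25 FPKM for WT and 27.5 ± 9.17 FPKM for KO, with KO replicate 2 lowest at 17.3 FPKM. Nppc, the gene of C-type natriuretic peptide, was at 0.241 FPKM or less.

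Among 18 other fetal or stress-induced muscle genes 15 were tested, 10 with lower and 5 with higher estimates (median -0.08), and none passed. The median lay between -0.25 (without WT replicate 1) and -0.05 (without WT replicate 3). Of the 15, 1 was fully separate and higher in KO and 2 were separate and lower. Ankrd23, a titin-binding relative of Ankrd1, measured 203, 158 and 146 FPKM across the WT hearts, against 79.8, 106 and 121 FPKM across the KO hearts without overlap (log2 difference -0.71 ± 0.18, limma adjusted p = 0.249). Flnc, the muscle filamin gene and a partner of Xin proteins, stood at 21 ± 0.577 against 16.2 ± 3.16 FPKM (-0.37 ± 0.15, limma adjusted p = 0.552). Acta2, the smooth muscle actin gene that scar myofibroblasts also express, stood at 119 ± 17.9 FPKM for WT and 151 ± 23.1 FPKM for KO (0.36 ± 0.17, limma adjusted p = 0.630). Tnni1, the fetal troponin I gene, was at 0.227 FPKM or less in every library, so its ratio to adult Tnni3 (log2 difference -0.08, exact permutation p = 1) rests on levels near 0.

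Of 14 adult ventricular genes 13 had lower estimates (median -0.16), none passing, and 8 of them are also cardiomyocyte markers. Without KO replicate 2 the count was 5 lower and 9 higher (median 0.05), and without KO replicate 3 the median was -0.31. With all hearts 1 of the 14 was fully separate, lower in KO. Mybpc3, the gene of cardiac myosin-binding protein C, measured 473, 486 and 449 FPKM across the WT hearts, against 337, 329 and 389 FPKM across the KO hearts, without overlap (log2 difference -0.41 ± 0.16, limma adjusted p = 0.522). Ckm, the muscle creatine kinase gene, differed by -0.32 ± 0.20, and Kcnip2, a potassium channel subunit gene, by -0.29 ± 0.22 (limma adjusted p = 0.757 and 0.800).

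Of 29 regulators of the fetal programme 28 were tested, 14 higher and 14 lower (median 0.00), and none passed. Among the 28, 1 was fully separate and higher in KO and 2 were separate and lower. Thra, the gene of a thyroid hormone receptor through which thyroid hormone raises Myh6 and lowers Myh7, measured 24.2, 23.5 and 22.2 FPKM across the WT hearts, against 18.8, 19.7 and 16 FPKM across the KO hearts without overlap (log2 difference -0.34 ± 0.11, limma adjusted p = 0.434). Tead1, a factor that binds the MCAT element, stood at 13.9 to 17.3 FPKM in WT, at 10.4 and 14.5 FPKM in KO replicates 1 and 2, and at 1.41 FPKM in KO replicate 3 (-1.23 ± 0.68, limma adjusted p = 0.707). Hdac4, a histone deacetylase gene that restrains MEF2, differed by 0.26 ± 0.14 (limma adjusted p = 0.710).

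The genes most like 3 of the members were sought among 12533 other protein-coding genes, by the mean absolute difference of log2 values centred over the 6 libraries. Nearest to Nppa were Tmem254a (0.052), Tmem254c (0.054) and P2ry6 (0.054), which encodes a nucleotide receptor, against a median gene at 0.313. Nearest to Nppb were Cd86 (0.045), a co-stimulatory molecule gene of antigen-presenting cells, Kif20a (0.052), a mitotic kinesin gene, and Taz (0.055), against a median of 0.316. Nearest to Myh7 were Idi1 (0.047), a gene of isoprenoid synthesis, the alpha-globin gene Hba-a2 (0.082) and Pygl (0.088), which encodes the liver form of glycogen phosphorylase, against a median of 0.359. None of these 9 genes passed the genotype test. With 6 libraries such likeness describes the profiles and no more.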

How the data were processed

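Whole-heart RNA of 3 WT and 3 KO infarcted mice, grouped by their titles, was sequenced after an Illumina TruSeq preparation, per the labels. The table's title speaks of counts, but what the authors deposited is FPKM: between 37.2% and 40.4% of each library's entries are fractional. Bowtie 0.12.2 and the builds mm8 and mm9 appear, without a role, in the submitters' processing notes; no source used here gives the quantification tool or any use of strand. Symbols and coordinates come from GENCODE M21 (GRCm38), which matched 52403 of 52550 rows by identifier, and sequences from RefSeq. Genes reaching 0.5 FPKM in 3 libraries were tested on log2(FPKM / factor + 0.5), with trimmed-mean scaling factors (0.949 to 1.075; trims 0.3 and 0.05), by limma 3.58.1 in R 4.3.3 (genotype only, mean-variance trend, two-sided, Benjamini-Hochberg over all genes, threshold 0.05). These log2 differences understate changes of low genes. As a check of the code, the fit was run on simulated data with independent noise, which does not bear on the results here. Ratios and marker-relative levels use unscaled log2(FPKM + 0.5) and an exact permutation test. Depth was estimated from the most frequent product of FPKM and length in single-transcript genes; whole counts were not recovered, so no interval on counts is given. The labels name no litter or batch, and p-values reflect only how much these samples vary, which may be technical. All members and all genes named from fixed lists (those that passed and the 3 of smallest p per pathway list, with the 2 largest differences per marker list), and the 3 nearest profiles of Nppa, Nppb and Myh7, were named by rule; Corin, Nppc, Actc1, Mhrt, Gm29015, Gm13054, Tnni1 and single markers beyond the 2 largest were named after their values were seen. The members and lists were chosen with earlier results of these data known. The level of the deleted RNA was not analysed here.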

Additional observations from a re-analysis of the deposited data

How the results depend on the processing

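None of the 9 members passed under any of the 16 alternatives. The number of genes called over the whole table was 55, moved to 20 with no filter on low values, ranged from 12 to 36 when single libraries were left out, and was 3 without WT replicate 1 and KO replicate 2 (chosen after the data were seen). The log2 difference of the Myh7 to Myh6 ratio ranged from -0.72 to -0.16 when single libraries were left out.

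Signs near 0 turned as follows, with ranges over leaving out single libraries. No difference of a member passed by limma. The exact test of ratios and marker-relative levels could not pass at 0.05 in any setting. Its smallest p is 0.1 with 3 against 3 libraries and 0.2 with 3 against 2. Differences ranged from -0.44 to 0.02 for Nppa, -0.01 to 0.31 for Npr3, -0.41 to 0.02 for Myh6 and -0.09 to 0.11 for Npr1, which also turned with no scaling factor (-0.00) and without the pair of libraries named above (-0.09). The ratio of Nppb to Nppa ranged from -0.62 to 0.12 (0.10 without that pair), Npr3 to Npr1 from -0.12 to 0.40, Nppa to Actc1 from -0.53 to 0.12, and Tnni1 to Tnni3 from -0.38 to 0.26 (0.01 at pseudocount 1). Relative to cardiomyocyte markers, Nppa ranged from -0.43 to 0.39 (-0.20 without that pair, -0.01 with the marker median), Nppb from -0.34 to 0.08, Npr1 from -0.08 to 0.48, Ankrd1 from -0.51 to 0.13, Xirp2 from -0.52 to 0.01, and Myh6 from -0.07 to 0.09 (-0.06 without that pair, -0.05 with the marker median). The causes were not tested.

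Same-numbered libraries correlated in their deviations from the group means at 0.008, -0.036 and 0.180. The other pairs ranged from -0.202 to 0.193. With 3 libraries per group these values cannot decide whether same-numbered samples share a litter or batch, which the labels do not name. With the replicate block 42 genes were called, and Myh7 had an adjusted p of 0.342 by limma. KO replicate 2 correlated best with WT replicate 1 (0.193). With 3 hearts per genotype, even a difference as large as that of Acta1 (-0.86 ± 0.37, limma adjusted p = 0.596) did not pass. The smallest difference that could have been detected was not determined, so a member without a pass cannot be called unchanged.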
